A study of Mus musculus with 2 samples.

Results

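The 10 heat shock chaperone genes described here were followed through a pool of sorted mouse thymocytes: Hspa1a, Hspa1b, Hspa8, Hsp90aa1, Hsp90ab1, Hsph1, Dnaja1, Dnajb1, Hspd1 and Hspe1. They were chosen by name, 10 of the 32285 gene rows of the count matrix, and all 10 were among the 6745 gene rows with at least 20 CPM over the kept cells, CPM being the UMIs of a gene scaled to all gene UMIs of the cells summed. Hspa1a and Hspa1b varied most between the marked populations, their sum going from 355.4 to 2057.1 CPM, and Dnajb1 shared part of their pattern, whereas Hsp90aa1, Hsp90ab1, Hspd1 and Hspe1 followed another pattern. The cells came from thymi of Ctrl mice and of T-KO mice, 4 thymi to a pool, sorted as stage 0 (TCRβ+, CD1d tetramer+, CD24+, NK1.1-) and stage 3 (TCRβ+, CD1d tetramer+, NK1.1+, CD24-, CD44+) invariant natural killer T (iNKT) cells with 2 replicas of each. T-KO mice carry floxed Kidins220 and a Cre driven by the proximal Lck promoter, so that deletion starts in early thymocytes and is not limited to iNKT cells, while γδ T cells hardly express this Cre. The strain label of all samples is C57BL/6. For its mice as a whole, the study's methods give an age range and a matching by age, sex and litter as far as it could be achieved. They give neither age nor sex for this experiment. Cells were stained on ice, marked with hashtag antibodies 1 to 8, washed with centrifugation for 5 min at 4 °C, and all 8 populations were pooled for 1 droplet run that gave a 5′ transcript library and a hashtag library.

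The matrix held 16179 barcodes and 20 hashtag rows. A barcode was kept as a cell with at least 1000 genes, at most 5% mitochondrial UMIs and at least 80% of at least 10 hashtag UMIs on 1 of the rows 11 to 18, which left 10007 cells. These 8 rows took 99.9% of all hashtag UMIs, while the labels name hashtags 1 to 8, and no source used here pairs a row with a stage or a genotype. No row was therefore assigned to a group of stage and genotype, no group mean or test was made, and Ctrl and T-KO were not compared. The sorted stage alone can be read from markers, as given in the next paragraph. Rows 11 to 18 held 1176, 1752, 1601, 2162, 889, 577, 583 and 1267 cells and 9743316, 6054286, 14601545, 7308192, 8784289, 2283162, 5400279 and 4849723 gene UMIs. Values in brackets are 95% bounds, exact Poisson for levels and exact binomial (Clopper-Pearson) for shares, and they reflect counting error alone.

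The odd and the even rows held different cells, and the odd rows did not look like purified iNKT cells. Trav11, the gene segment of the invariant receptor chain, was at 39.5 to 56.5 CPM in the even rows and at 0.205 to 1.14 CPM in the odd rows. Zbtb16, the transcription factor PLZF of iNKT cells, was at 64.7 to 74.7 CPM in the even rows and at 4.72 to 7.41 CPM in the odd rows. Klrb1c, which encodes NK1.1, was at 328.5 to 444.1 CPM and at 4.78 to 6.57 CPM, respectively. Of the 2 sorted stages, the later was gated as positive for NK1.1 and the earlier as negative. By this marker the even rows match the gate of the later stage and the odd rows that of the earlier, though no label states it. Differences between odd and even rows are thus also differences between these sorts and their cells. The markers do not give the genotype of a row. The odd rows instead carried Cd79a, part of the B cell receptor, at 228.1 to 560.3 CPM, and Cst3, abundant in dendritic cells, up to 5853.4 CPM. The odd rows were therefore split, by the first match in this order, into Cd79a cells (at least 2 UMIs), Cst3 cells (at least 5), Rag1 cells (at least 1 UMI of the recombinase of immature thymocytes), Ikzf2 cells (at least 2 UMIs of the transcription factor Helios) and remaining cells. These are ranges of UMI counts and not cell types. Rows 11 and 12 also stood apart in Xist, the RNA of the inactive X chromosome of females, which was at 6.26 and 9.58 CPM there and at 177.3 to 422.7 CPM in the other 6 rows. The Y-linked Ddx3y was at 33.4 and 41.0 CPM in rows 11 and 12 and at 12.6 to 24.4 CPM in the others. The part of mouse sex in the chaperone values was not tested.

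Chaperones bind unfolded stretches of other proteins. Hspa8 is the constitutive cytosolic Hsp70, Hspa1a and Hspa1b encode the inducible Hsp70, Dnaja1 and Dnajb1 are J-domain proteins that hand clients to Hsp70 and stimulate its ATPase, and Hsph1 (Hsp110) exchanges its nucleotide. Hsp90aa1 and Hsp90ab1 encode the inducible and the constitutive cytosolic Hsp90, which keeps kinases and receptors competent, and Hspd1 and Hspe1 encode the chamber and the lid of the mitochondrial chaperonin. Heat shock factor 1 is released when unfolded proteins occupy the chaperones and binds heat shock elements, inverted repeats of a short unit, and tissue dissociation is known to induce some of these genes together with immediate early genes such as Fos and Jun.

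Heat shock elements are shown because they are the letters that the inducible members are known to share. Windows of 250 bases before the RefSeq start (build GRCm38.p6) were at hand for Hspa1a, Hspa1b, Hsph1, Dnaja1, Dnajb1, Hspd1 and Hspe1. Both strands were searched for 2 units (GAANNTTC or TTCNNGAA), found in 12.8% of the 32851 windows at hand, which did not cover every gene. They were also searched for 3 units (GAANNTTCNNGAA or TTCNNGAANNTTC, each of which also holds the 2-unit match), found in 0.466%. At least 1 window of each of Hspa1a, Hspa1b, Hsph1, Dnaja1, Hspd1 and Hspe1 held 2 units, and only Hspd1 and Hspe1 held 3. Neither was found at start 1 of Hspd1, at starts 2 and 3 of Dnaja1 or at the 2 starts of Dnajb1. The 12.8% and 0.466% are shares of windows, whereas a gene with several starts had several windows. No match says only that these letters are not in this window. In the stretches of 30 bases below, capitals mark the matched units.
Hspa1a (chr17:34972242-34972271, minus strand, 104 to 97 bases before the start): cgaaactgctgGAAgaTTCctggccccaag
Hspa1b (chr17:34959324-34959353, minus strand, 104 to 97 bases before the start): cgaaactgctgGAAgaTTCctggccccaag
Hsph1 (chr5:149636351-149636380, minus strand, 33 to 26 bases before the first start): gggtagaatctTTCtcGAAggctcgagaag
Dnaja1 (chr4:40722333-40722362, plus strand, 124 to 117 bases before the first start): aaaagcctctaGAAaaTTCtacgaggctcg
Hspe1 (chr1:55088053-55088082, plus strand, 89 to 72 bases before the start): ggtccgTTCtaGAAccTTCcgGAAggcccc
The same 30 bases read on the minus strand lie 144 to 127 bases before the second start of Hspd1, which runs in the opposite direction. The windows of Hspa1a and Hspa1b differed at 3 of 250 bases.

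Hspa1a (chr17:34969190-34972156) and Hspa1b (chr17:34956436-34959238) are single-exon genes on the minus strand in the GENCODE annotation of mm10. Of the stretches of 90 bases in the Hspa1a transcript, 49.3% also stood in that of Hspa1b, and 49.6% among its first 500 bases. Reads could thus be split between them or lost, and the sum is the firmer value. In the same annotation the other members lie at chr9:40800984-40810087 (Hspa8), chr12:110690605-110702728 (Hsp90aa1), chr17:45567775-45573271 (Hsp90ab1), chr5:149614287-149636376 (Hsph1), chr4:40722150-40737149 (Dnaja1), chr8:83608193-83612653 (Dnajb1), chr1:55077835-55088243 (Hspd1) and chr1:55088132-55091307 (Hspe1). Hspd1 and Hspe1 overlap at their ends, on opposite strands. Hspa1b took 49.3% (47.0 to 51.6) of the summed UMIs in row 17 and 69.1% (66.2 to 71.9) in row 16.

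Hspa1a plus Hspa1b, the inducible Hsp70, was highest in row 14 and lowest in row 17. In rows 11, 13, 15 and 17 the summed level was 1192.7, 829.4, 544.3 and 355.4 CPM. In rows 12, 14, 16 and 18 it was 1626.1, 2057.1, 459.0 and 694.7 CPM. No 2 rows overlapped in their counting intervals. The fold between the highest and the lowest row was 5.79 (5.52 to 6.07) over 8 rows, 3.36 (3.20 to 3.52) over the odd rows and 4.48 (4.21 to 4.78) over the even rows. Without rows 11 and 12, which stood apart in Xist and were left out after the data were seen, the fold was 2.33 (2.22 to 2.45) over the odd rows, and the other folds rested on rows 14, 16 and 17 and did not change. Hspa1a alone was at 544.9, 604.9, 377.6, 740.7, 239.2, 141.9, 180.2 and 237.7 CPM in rows 11 to 18, and Hspa1b alone at 647.8, 1021.3, 451.8, 1316.5, 305.1, 317.1, 175.2 and 456.9 CPM. In both genes row 11 was highest and row 13 next among the odd rows, and row 14 highest and row 12 next among the even rows.

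Dnajb1, the J-domain partner of the inducible Hsp70, shared part of this order. It was at 294.6, 424.7, 255.3, 553.5, 209.7, 233.0, 155.9 and 270.5 CPM in rows 11 to 18. As for Hspa1b, row 14 was highest, row 12 next and row 17 lowest, a fold of 3.55 (3.30 to 3.83). Over the odd rows alone the fold was 1.89 (1.75 to 2.04), and over the even rows 2.38 (2.17 to 2.60).

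Hspa8, Dnaja1 and Hsph1 had their high odd row elsewhere. Hspa8 was at 2941.7, 2553.7, 2789.0, 2230.1, 4318.7, 2979.6, 2041.6 and 2111.5 CPM in rows 11 to 18. Row 15 was highest and row 17 lowest, 2.12-fold (2.07 to 2.16) apart, while the even rows spanned 1.41-fold. Dnaja1 was at 321.5, 327.4, 286.9, 248.4, 424.6, 358.7, 272.0 and 231.8 CPM, with row 15 highest and row 16 next. Hsph1, the nucleotide exchange factor, spanned 136.3 CPM in row 17 to 238.4 CPM in row 14, and rows 14, 15 and 12, at 238.4, 236.8 and 227.8 CPM, overlapped in their intervals.

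The cytosolic Hsp90 genes and the mitochondrial chaperonin separated odd from even rows. Hsp90aa1 was at 811.9, 1019.2, 1343.8 and 1046.2 CPM in rows 11, 13, 15 and 17 and at 393.1, 384.6, 425.3 and 357.8 CPM in rows 12, 14, 16 and 18. Hsp90ab1 was at 3294.2, 3991.7, 4684.2 and 4350.9 CPM in the odd rows and at 2557.9, 2381.3, 3082.1 and 2429.2 CPM in the even rows. Hspd1 was at 299.6, 406.3, 537.7 and 474.4 CPM and at 204.2, 164.9, 215.5 and 170.3 CPM, and Hspe1 at 449.5, 496.5, 634.1 and 553.5 CPM and at 328.2, 283.1, 365.3 and 265.6 CPM, respectively. In all 4 genes every odd row lay above every even row, row 15 was highest and row 11 the lowest of the odd rows. These were 4 of the 10 chaperones, and 35.8% of the 6745 genes likewise had every odd row above every even row, so the share is near the background. The same held for all 8 subunits of the cytosolic chaperonin TRiC, 7 of 9 other mitochondrial chaperones and proteases and 8 of 18 other heat shock and cytosolic chaperones. Within the even rows Hsp90aa1, Hsp90ab1, Hspd1 and Hspe1 spanned at most 1.38-fold.

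**Figure D1:**
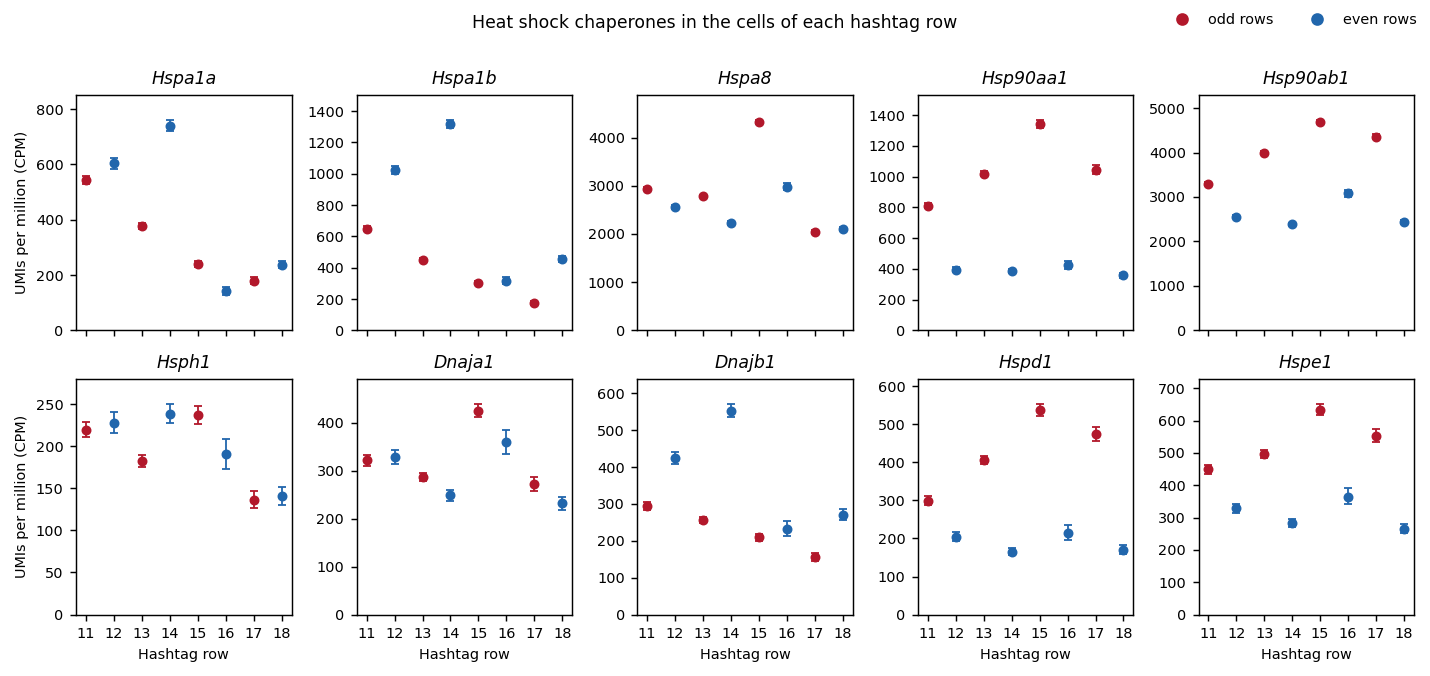
Level of each chaperone gene (CPM, linear axis from 0) in the cells of hashtag rows 11 to 18, 1 panel a gene, red for odd and blue for even rows; bars are 95% Poisson intervals and are often smaller than the points. Hspa1b spans 175.2 to 1316.5 CPM with rows 12 and 14 on top, whereas Hspd1 spans 164.9 to 537.7 CPM with every odd row above every even row.

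Row differences were common among all genes, which sets the scale for these folds. Folds over the 8 rows span both sorted stages, as read from the markers. Over the 8 rows, 7 of the 10 chaperones were at least 2-fold apart, against 34.5% of the 6745 genes. Over the 4 odd rows 3 were (Hspa1a, Hspa1b and Hspa8), against 7.01%, and over the 4 even rows 3 were (Hspa1a, Hspa1b and Dnajb1), against 3.25%. The median fold of the members was 2.82 over 8 rows, 1.77 over odd and 1.48 over even rows, and that of all genes 1.69, 1.27 and 1.20. The 10 genes summed went from 12933.8 CPM in row 15 to 6672.1 CPM in row 18, 1.94-fold (1.91 to 1.96), a smaller range than that of Hspa1a plus Hspa1b.

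Cell depth differed between rows, with a median of 6500 to 8068 UMIs in the odd rows and 3258 to 3804 in the even rows, and its part in these differences was not tested. With cells of 3000 to 12000 UMIs only, a range chosen after the data had been seen, 4 of the 10 genes instead of 7 were at least 2-fold apart over the 8 rows, against 31.4% of the 6745 genes in the same cells, a share near the background, and Hspa1a plus Hspa1b was 3.01-fold apart over the odd rows.

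Within the odd rows the order of rows for the inducible Hsp70 held in most groups of cells. The mix of cells differed between rows: Cst3 cells were 33.2%, 16.9%, 24.2% and 16.5% of rows 11, 13, 15 and 17, Cd79a cells 21.4%, 23.7%, 13.5% and 9.95%, and Ikzf2 cells 13.7%, 29.5%, 27.4% and 39.1%. The 9 myeloid markers summed, of which Cst3 was the most abundant, stood at 10603.2, 5207.9, 5974.6 and 3724.2 CPM in rows 11, 13, 15 and 17, and the 7 B cell markers at 17806.7, 10198.7, 9526.1 and 6414.3 CPM, so row 11 was highest and row 17 lowest in these as well. Most of the latter sum was Cd74, at 16334.6, 8641.4, 8363.8 and 5737.5 CPM, which dendritic cells express too, while Cd79a was at 550.2, 560.3, 291.4 and 228.1 CPM. In the even rows they stood at 366.4 to 535.8 CPM and 510.2 to 905.0 CPM, lowest in row 14, the row highest in Hspa1a plus Hspa1b. In Cst3 cells Hspa1a plus Hspa1b was at 1784.6, 1740.2, 1183.8 and 971.2 CPM in these rows. In Ikzf2 cells it was at 642.5, 451.6, 327.5 and 140.2 CPM, and in Rag1 cells at 681.9, 462.9, 241.0 and 207.6 CPM. In remaining cells it was at 875.7, 648.2, 286.4 and 226.3 CPM, and in Cd79a cells at 726.8, 748.8, 293.0 and 252.8 CPM. Row 11 was highest in 4 groups, row 13 in Cd79a cells, and row 17 was lowest in all 5. Rows 11 and 13 overlapped in their intervals in Cst3 and Cd79a cells, and rows 15 and 17 in Rag1 and Cd79a cells. Row 11 over row 17 gave 2.88-fold in Cd79a, 1.84-fold (1.73 to 1.96) in Cst3, 3.29-fold (2.79 to 3.88) in Rag1, 4.58-fold (3.96 to 5.31) in Ikzf2 and 3.87-fold (3.36 to 4.47) in remaining cells. With cells of 3000 to 12000 UMIs this fold was 1.35 in Cst3, 3.96 in Ikzf2 and 6.94 in remaining cells, and with looser limits for the groups it was 2.95 in Cst3 cells, so its size and the order of the groups depended on which cells were taken.

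The number of chaperones at least 2-fold apart between odd rows was 5 of 10 in Cd79a cells, 0 in Cst3 cells, 4 in Rag1 cells, 4 in Ikzf2 cells and 5 in remaining cells. The background was 21%, 6.06%, 11%, 5.29% and 10% of the 6745 genes. Of these genes, 0.208% had the same highest and the same lowest odd row in all 5 groups, and no chaperone did. Xist and Eif2s3y, 0.0297% of the genes tested, had both and a 2-fold range in every group. Depth also differed within groups: Rag1 cells of row 11 had a median of 3684.5 UMIs, against 14409, 14550 and 15274 in rows 13, 15 and 17.

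The inducible Hsp70 was also unequal between groups of cells, and here each row served as its own comparison. Cst3 cells were above each of the other 4 groups in 4 of 4 rows, by a median log2 ratio of 2.07 over Rag1 cells, 1.90 over Ikzf2 cells and 1.74 over remaining cells, and that of Cd79a cells over Cst3 cells was -1.62. Hspa1a and Hspa1b were the 2 of 10 chaperones at least 2-fold higher in Cst3 than in Ikzf2 cells in all 4 rows, against 5.16% of all genes. The same 2 were so against Cd79a cells, where 5.62% of genes were, and against Rag1 cells, where 9% were. Against remaining cells only Hspa1a was, where 5.22% of genes were. The lowest level in any group and row was 140.2 CPM, in Ikzf2 cells of row 17. The part of RNA free in the shared droplets in these levels was not tested.

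The other members had a different order of groups. Hsp90ab1 was at 5102.2, 5525.4, 6217.2 and 5298.1 CPM in Rag1 cells of rows 11, 13, 15 and 17, and at 2009.6, 2127.3, 2630.6 and 3263.0 CPM in Cd79a cells. Hspd1 was at 714.2, 684.0, 883.2 and 636.0 CPM in Rag1 cells and at 121.4, 162.1, 168.8 and 340.1 CPM in Cd79a cells. For both genes Rag1 cells of every row lay above Cd79a cells of every row, as did 5 of the 10 chaperones, against 45.9% of all genes, a share near the background. Rag1 cells were above Ikzf2 cells in all 4 rows for 6 chaperones, against 23.2% of all genes. The median log2 ratio of Rag1 over Ikzf2 cells was 0.73 for Hspd1, 0.64 for Hsp90aa1, 0.38 for Hspe1, 0.33 for Hsp90ab1, 0.24 for Hspa8 and 0.19 for Hsph1, while Dnajb1 was lower in Rag1 cells in all 4 rows, at -0.31. For the 10 genes summed, of which Hsp90ab1 and Hspa8 are the most abundant, it was 0.30 to 0.38 over the rows, with a median of 0.32.

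Hspa8 kept row 15 on top and row 17 at the bottom outside the Cd79a cells. It was at 3404.1, 2972.5, 4258.8 and 1884.2 CPM in Ikzf2 cells of rows 11, 13, 15 and 17, and at 4004.1, 3507.2, 5173.8 and 2162.8 CPM in Rag1 cells. Row 15 over row 17 was 2.26-fold (2.17 to 2.35) in Ikzf2 cells, 2.39-fold (2.28 to 2.51) in Rag1 cells and 1.89-fold (1.81 to 1.97) in Cst3 cells. In Cd79a cells it was at 1560.1, 1471.6, 2031.5 and 1746.4 CPM, with row 13 lowest. Dnaja1 and Hsph1 had the order 15, 11, 13, 17 in the same 4 groups, with rows 15 and 11 close in most of them. Row 15 was thus high in Hspa8 and not in Hspa1a plus Hspa1b, which stood at 327.5 CPM there in Ikzf2 cells, below rows 11 and 13.

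**Figure D2:**
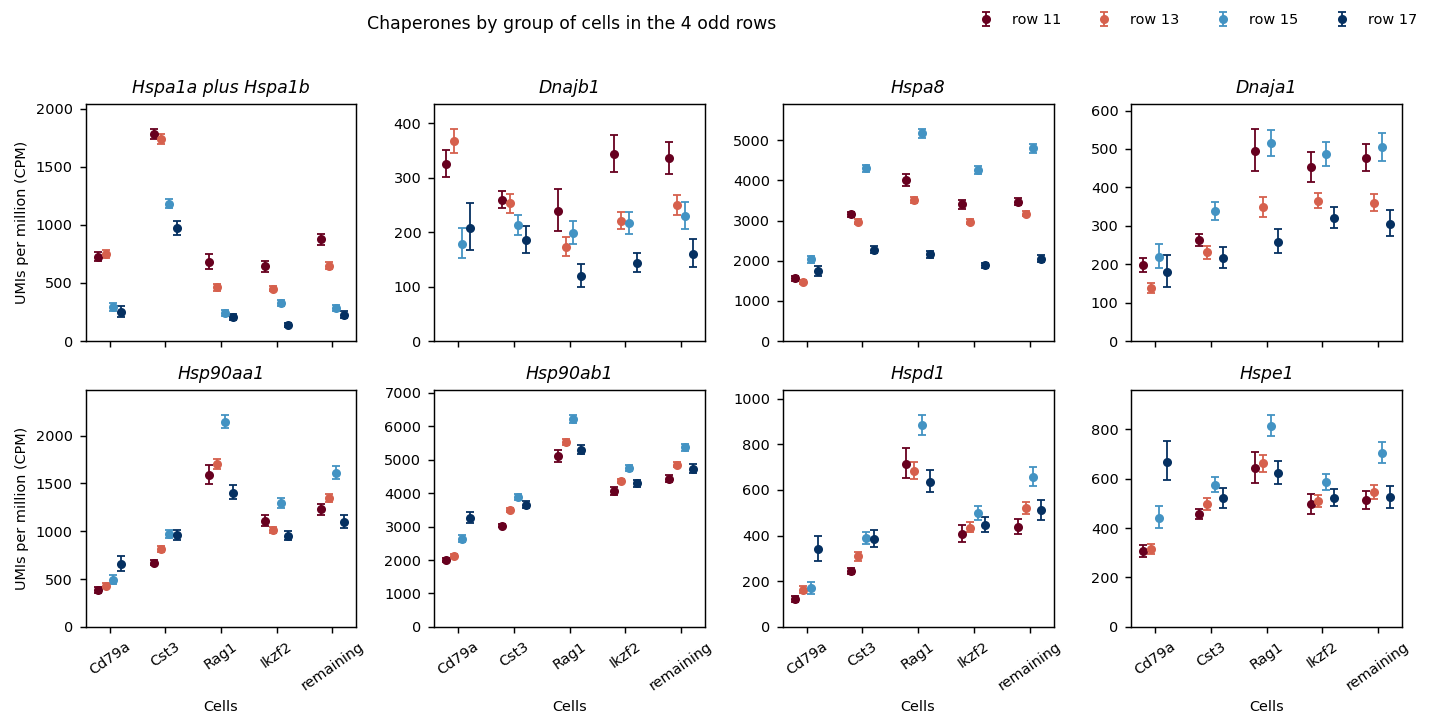
Level (CPM, linear axis from 0) of 8 quantities in the 5 groups of cells of the 4 odd rows, 1 colour a row, with 95% Poisson intervals. Hspa1a plus Hspa1b has row 11 highest in 4 groups and row 17 lowest in all 5, and is highest in Cst3 cells, while Hspa8 is highest in row 15 in every group, at 5173.8 CPM in Rag1 cells.

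Members were compared over 24 sets of cells, the 4 even rows and the 20 combinations of odd row and group, as a description; all sets come from 1 library, and sets of a row or a group share mice or cell kind. On log2(CPM + 10), Hspa1a and Hspa1b had a Pearson r of 0.95, and Hspa1b and Dnajb1 of 0.77. Hspa8 went with Dnaja1 (r = 0.86) and Hsph1 (r = 0.72) and also with Hsp90ab1 (r = 0.68), Hsp90aa1 (r = 0.67) and Hspd1 (r = 0.65), but hardly with Hspa1b (r = 0.04). Dnaja1 was closer to Hsp90ab1 (r = 0.73) and Hspd1 (r = 0.69) than to Hsph1 (r = 0.48), and Hsph1 had r of 0.49 with Hspa1a and of 0.13 with Hsp90ab1. Hsp90ab1, Hspd1, Hsp90aa1 and Hspe1 had r of 0.89 to 0.99 with each other and of -0.57 to -0.47 with Hspa1b. Hspa1a plus Hspa1b and Hspa8, both cytosolic Hsp70, thus had different patterns, as had the J-domain genes Dnajb1 and Dnaja1 (r = -0.09).

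**Figure D3:**
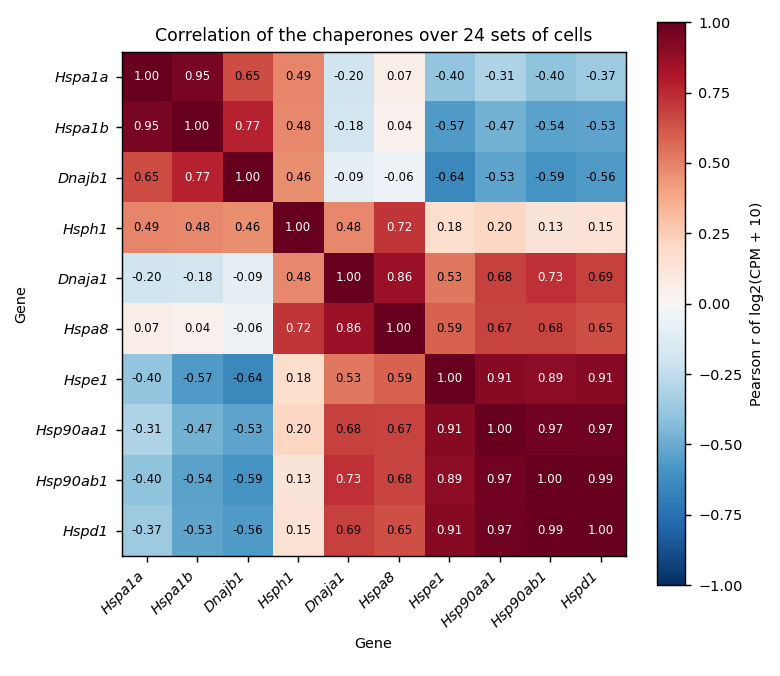
Pearson r of log2(CPM + 10) between each 2 of the 10 chaperones over 24 sets of cells, red for positive and blue for negative r. Hspa1a, Hspa1b and Dnajb1 have r of 0.65 to 0.95 with each other and Hspe1, Hsp90aa1, Hsp90ab1 and Hspd1 of 0.89 to 0.99, whereas Hspa8 and Dnaja1 lie nearer to the latter and Hsph1 has r of 0.46 to 0.49 with the former and of 0.72 with Hspa8.

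The genes most like Hspa1a plus Hspa1b over these 24 sets, besides the 2 genes themselves, were Card19 (r = 0.79), Slc25a38 (0.78), Trf (0.77), Arsb (0.75), Rgs2 (0.75), Sgpp1 (0.75), Neat1 (0.75) and Gsdmd (0.75). Of the chaperones, Dnajb1 ranked 16 of 6745 genes (r = 0.73), Hsph1 494 (r = 0.49) and Hspa8 2320 (r = 0.05). Of the immediate early genes, Atf3 ranked 14 (r = 0.74), Jun 30 (r = 0.70), Zfp36 36 (r = 0.70) and Fos 163 (r = 0.61), while Egr1 ranked 2260 (r = 0.06) and Nr4a1, induced by T cell receptor signals, 4629 (r = -0.32). The sets mix differences between groups of cells with differences between rows. Hspa1a plus Hspa1b was higher in Cst3 cells than in each other group in all odd rows. Fos and Jun were higher in Cst3 than in Rag1 and Ikzf2 cells in 4 of 4 odd rows.

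Immediate early genes, the fast transcription factors and feedback inhibitors induced within minutes of a stimulus, moved with the inducible Hsp70 over the rows in part. Of 20 listed genes 16 passed 20 CPM, and 14, 6 and 5 of them were at least 2-fold apart over 8, odd and even rows, against 34.5%, 7.01% and 3.25% of all genes. Their summed level was 3971.5, 3339.2, 2469.0 and 2700.2 CPM in rows 11, 13, 15 and 17 and 6253.3, 7235.3, 4651.9 and 5874.6 CPM in rows 12, 14, 16 and 18. Row 14 was the highest even row and row 16 the lowest for this sum and for Hspa1a plus Hspa1b alike, and row 11 the highest odd row for both, but the lowest odd row was row 15 for the sum and row 17 for Hsp70. Jund was the most abundant at 722.4 CPM over all kept cells.

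Jun was at 579.4, 472.6, 278.5 and 309.8 CPM in rows 11, 13, 15 and 17 and at 427.0, 575.7, 214.6 and 325.2 CPM in rows 12, 14, 16 and 18, which in the even rows is the order of Hspa1a plus Hspa1b. Fos was at 455.8, 406.1, 202.0 and 262.4 CPM and at 276.0, 457.0, 125.3 and 282.5 CPM, respectively. Dusp1, a MAP kinase phosphatase, was at 158.1, 128.1, 78.5 and 123.3 CPM and at 609.7, 844.0, 328.9 and 522.1 CPM. Egr1 was at 112.2, 114.8, 81.2 and 107.6 CPM and at 77.8, 94.8, 103.8 and 104.5 CPM, without that order. Row 11 was the highest odd row for 12 of the 16 genes, against 25.6% of all genes, and row 17 the lowest for 4, against 17.9%. Row 14 was the highest even row for 9, against 20.5%, and row 16 the lowest for 13, against 27.9%.

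Within groups of cells the sum of the early genes separated less by row than Hsp70 did, while some single early genes separated more than their sum. Their summed level in Ikzf2 cells was 2837.9, 2841.5, 2417.7 and 2661.4 CPM in rows 11, 13, 15 and 17, where Hspa1a plus Hspa1b fell from 642.5 to 140.2 CPM. In Rag1 cells it was 1425.3, 1317.1, 1019.2 and 1297.5 CPM, and in Cst3 cells 4859.8, 4407.2, 3580.1 and 3992.8 CPM. In Cd79a cells it was 4093.2, 5228.7, 3662.1 and 4012.1 CPM, and in remaining cells 3341.7, 2342.8, 1675.4 and 2190.4 CPM. Between the highest and the lowest odd row this was 1.18-fold in Ikzf2, 1.36-fold in Cst3, 1.40-fold in Rag1, 1.43-fold in Cd79a and 1.99-fold (1.90 to 2.09) in remaining cells, against 4.58, 1.84, 3.29, 2.96 and 3.87 for Hspa1a plus Hspa1b. Fos spanned 3.06-fold (2.36 to 4.00) in Rag1 cells, with row 17 highest, and 2.60-fold in Ikzf2 cells, and Dusp1 2.87-fold in Cd79a and 3.20-fold (2.45 to 4.23) in remaining cells. The median fold of the single genes was 1.44 in Ikzf2 to 1.94 in remaining cells. The range was wider than that of Hspa1a plus Hspa1b for 2 of 16 genes in Cst3 cells (Nr4a1 and Cebpb), for 1 of 15 in Rag1 cells (Fosb, with Atf3 at 0 UMIs in rows 11 and 17), for 1 in remaining cells (Atf3) and for 0 in Cd79a and Ikzf2 cells. Row 15 was lowest in the sum of early genes in all 5 groups, and row 17 lowest in Hspa1a plus Hspa1b. Among kept cells, which hold at most 5%, the median share of mitochondrial UMIs was 1.46% to 1.63% over the odd and 1.71% to 1.75% over the even rows. Barcodes over that limit were 19.1%, 25.6%, 20.8% and 26.4% of all barcodes of rows 11, 13, 15 and 17 and 8.35%, 8.55%, 10.7% and 11.6% of those of rows 12, 14, 16 and 18. The part of cell handling in the Hsp70 differences was not tested. Among the odd rows, and among the even rows, handling, mouse and genotype cannot be told apart. Each population carried 1 hashtag, and no source used here gives the genotype of a row. By the methods both stages were sorted from each pool of thymi, so a pool spans more than 1 row. No source names the rows of a pool.

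**Figure D4:**
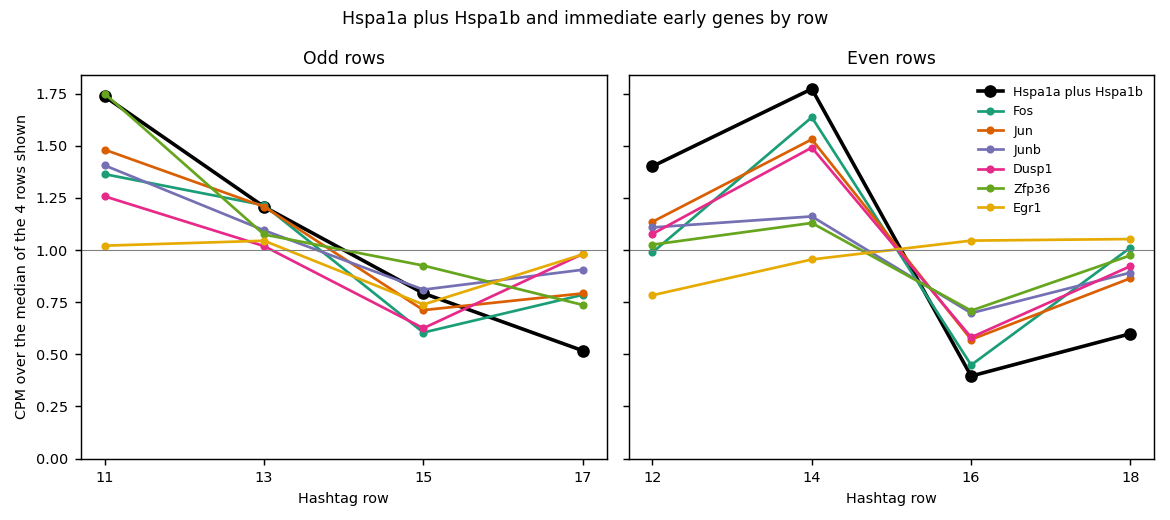
Level of Hspa1a plus Hspa1b (black) and of 6 immediate early genes (colours) in the odd (left) and even (right) hashtag rows, each divided by its median over the 4 rows shown; lines only join the rows of a gene. Jun, Fos and Dusp1 are highest in row 14 and lowest in row 16 as Hspa1a plus Hspa1b is, whereas in the odd rows they are lowest in row 15 and Hspa1a plus Hspa1b is lowest in row 17.

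Other chaperones were, by their counts, near the background or below it. The background was 34.5%, 7.01% and 3.25% of all genes over 8, odd and even rows, as above, with median folds of 1.69, 1.27 and 1.20. Of 25 other heat shock and cytosolic chaperones, 18 passed 20 CPM, and 5, 0 and 0 were at least 2-fold apart over 8, odd and even rows, with a median fold of 1.70 over 8 rows. Among them Ptges3 and Cdc37, cochaperones of Hsp90, spanned 1.81-fold and 1.17-fold over 8 rows, and Hspa4l and Stip1, an Hsp110 relative and the adaptor between Hsp70 and Hsp90, 2.99-fold and 2.93-fold. Stip1 was highest in row 15, at 246.5 CPM, and lowest in row 18, at 84.1 CPM. Hsf1, the main heat shock factor, went from 54.3 CPM in row 16 to 74.7 CPM in row 12, 1.37-fold, and Hsbp1, which binds it, spanned 1.15-fold. All 8 subunits of the cytosolic chaperonin TRiC passed the limit; 3 were 2-fold apart over 8 rows and 0 over odd or even rows, with a median fold of 1.97 over 8 rows, Cct2 and Cct5 at 1.97-fold and 1.96-fold and Tcp1 and Cct6a at 2.50-fold and 2.41-fold. Of 9 mitochondrial chaperones and proteases tested, 1 (Trap1, 2.02-fold) was, and Hspa9, the mitochondrial Hsp70, spanned 1.83-fold.

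In the endoplasmic reticulum, 4, 1 and 0 of 14 chaperones were 2-fold apart over 8, odd and even rows, against the same 34.5%, 7.01% and 3.25% of all genes. Hsp90b1 and Hspa5, the resident Hsp90 and Hsp70, spanned 1.76-fold and 1.56-fold, while Sdf2l1 and Creld2, both induced by unfolded proteins in that compartment, spanned 4.31-fold and 3.75-fold with row 11 highest and row 14 lowest. Row 14, highest in Hspa1a plus Hspa1b, was thus lowest in these 2 genes. Over the even rows alone, no gene of this list spanned more than 1.60-fold. In the odd rows the list summed to 4244.2 to 5349.4 CPM in Cd79a cells and 4792.8 to 5470.4 CPM in Cst3 cells, against 2179.0 to 2498.8 CPM in Rag1 cells. Row 11 held 21.4% Cd79a and 33.2% Cst3 cells, and row 14 held 0.0925% and 0.555%. The part of this mix of cells was not tested. Of 9 oxidative and ubiquitin stress genes tested, 5, 2 and 1 were 2-fold apart. Ubb, a polyubiquitin gene, spanned 1.26-fold, and Gadd45b and Ddit4 4.67-fold and 3.17-fold.

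The share of cells with a UMI of Hspa1a or Hspa1b differed between rows. To compare shares, each cell was thinned to 2000 UMIs and shallower cells were left out (97, 127, 58, 195, 36, 68, 25 and 162 in rows 11 to 18). A UMI of either gene was then seen in 55.1% (52.0 to 58.0), 50.6%, 40.1% and 30.5% of cells of rows 11, 13, 15 and 17, and in 54.2%, 76.0% (74.0 to 77.8), 36.5% and 48.3% of cells of rows 12, 14, 16 and 18. Without thinning the shares in rows 11 to 18 were 67.5%, 60.8%, 69.3%, 81.4%, 60.6%, 50.6%, 48.2% and 59.3%. Rows 11 and 12 had like shares, though row 12 was higher in CPM, and 36.1% of its cells against 29.7% in row 11 had at least 3 UMIs. The lowest share in any group and row was 17.7%, in Ikzf2 cells of row 17, and the highest 79.3%, in Cst3 cells of row 13, at unthinned median depths of 5270.5 and 11197 UMIs; no group is known to lack these genes, so no background share can be set.

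**Figure D5:**
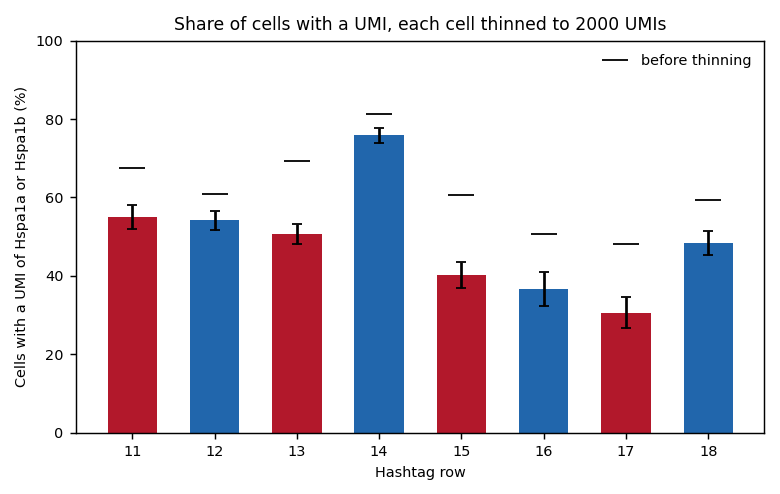
Share of cells (%) with at least 1 UMI of Hspa1a or Hspa1b in each hashtag row after thinning every cell to 2000 UMIs, red for odd and blue for even rows, with 95% Clopper-Pearson intervals; black marks show the share before thinning. Row 14 stands at 76.0% and row 17 at 30.5%.

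Within a row, thinned cells with more Hspa1b tended to have more Hspa1a. The median r over the 8 rows was 0.45, and single rows went from 0.28 in row 18 to 0.57 in row 11. The correlation of Hspa1a plus Hspa1b with Jun was 0.28, with Fos 0.25, with Dnajb1 0.17 and with Hspa8 0.11; these are weak values in sparse counts and are given as a description. They mix groups of cells: within groups of at least 100 cells in a row, the median r with Fos was 0.39 in Cst3, 0.32 in Cd79a, 0.17 in remaining, 0.099 in Rag1 and 0.097 in Ikzf2 cells, and that with Jun 0.40, 0.30, 0.30, 0.21 and 0.28.

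The barcodes left out of the kept cells had row 14 highest and row 17 lowest as well. In barcodes with over 5% mitochondrial UMIs, Hspa1a plus Hspa1b was at 846.6, 768.2, 533.5 and 324.2 CPM in rows 11, 13, 15 and 17 and at 1284.0, 1716.3, 441.9 and 557.8 CPM in rows 12, 14, 16 and 18. In barcodes with under 1000 genes and at most 5% mitochondrial UMIs it was at 1137.7, 1260.7, 916.3 and 343.5 CPM and at 1422.1, 2105.4, 528.7 and 581.6 CPM, respectively. In both sets row 14 lay above all other rows, whereas rows 11 and 13 overlapped in their intervals, as did row 16 with row 17 and rows 15, 16 and 18 with each other. In the second set row 12 overlapped rows 11 and 13 and row 15 both of these as well, so that most of the order below row 14 was not resolved. Over all 2573 and 1459 such barcodes, among them those that belong to no single row, it stood at 840.2 and 1362.8 CPM, against 1011.9 CPM in kept cells. Hsph1 was higher in both, at 437.9 and 432.1 CPM against 200.9 CPM, and Hspe1 lower, at 204.7 and 225.6 CPM against 446.7 CPM.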

How the data were processed

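Raw counts were used as deposited. They are UMIs of each gene and each hashtag in each barcode, which the authors made with Cell Ranger 6.0.0 and a prebuilt mm10 reference, for barcodes called as cells and before their own filters. The authors then worked in Seurat and removed B, myeloid and immature thymocyte clusters; neither step was applied here. The files hold 1 pooled library of sorted thymocytes and its hashtags.

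Here UMIs of the kept cells of a hashtag row were summed and divided by all gene UMIs (CPM). Ribosomal and mitochondrial genes stayed in the total. Rows are single values: 1 library, no replicate check, no test across rows, so no p-value is given. Folds carry an exact interval for 2 Poisson counts. Doublets within a row, and free RNA in droplets, were not removed; cells sharing hashtags were removed by the 80% limit (2140 of 12147 barcodes passing the other limits). Correlations used log2(CPM + 10). A fold of 2 was the limit for counting genes. The genes named are the 10 members, up to 4 of each other list (the 2 with the highest level, the 2 with the largest row ratio), markers that check the labels, and the 10 genes most like Hspa1a plus Hspa1b; Fos, Fosb, Jun, Zfp36, Atf3, Egr1, Nr4a1, Cebpb and Ddx3y were named after their values had been seen. The members, the lists and the range of 3000 to 12000 UMIs were chosen with earlier results of these data known. The scripts ran in Python 3.11.15 with numpy 2.4.6, scipy 1.17.1 and pandas 2.3.3 and were tested on simulated data. Alternatives for the hashtag call, the cell limits, the total, the weight of each cell and the thinning are given in the closing section. Gene positions are from the GENCODE annotation of mm10, promoter windows from RefSeq.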

Additional observations from a re-analysis of the deposited data

Results flagged for a closer look

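Hashtag rows outside 11 to 18 held signal that no comparison used. Row 1 had 12255 UMIs and row 4 had 11854. Rows 2, 3, 5, 6, 7, 8, 9 and 10 had 300, 54, 33, 161, 599, 231, 14 and 26 UMIs, and rows 19 and 20 had 60 and 12, each above the 3 UMIs that a count of 0 allows. In kept cells, 6978 of the 7179 UMIs of row 1 lay on cells of row 14, the row highest in Hspa1a plus Hspa1b, and 5258 of the 6456 UMIs of row 4 lay on cells of row 15, the row highest in Hspa8. These made up 0.203% and 0.320% of the hashtag UMIs of those cells. Their part in the chaperone values was not tested.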

How the results depend on the processing

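Recomputed were Hspa1a plus Hspa1b in row 11 over row 17, overall and by group, the 10 genes summed in row 15 over row 18, their log2 ratio between Ikzf2 and Rag1 cells, the count of members and the shares of cells. None of these folds and log2 ratios changed its direction, but some orders of rows in the shares did; other folds were not recomputed. A limit of 100 hashtag UMIs left all 17 values as they were and so tested nothing. Under the other alternatives 56 values moved by less than the counting interval and 49 by more, and the count of members 2-fold apart, 7, stayed within 1.5 times of that in 5 settings and not in 1; the cause was not tested. With 90% of hashtag UMIs on 1 row, the fold of Hspa1a plus Hspa1b over the odd rows, 3.36 in the report, was 3.69, and row 11 over row 17 in Cst3 cells was 2.07. With at most 4000 genes a cell, against doublets, these were 2.77 and 1.41, the other groups gave 2.22 (Cd79a), 3.53 (Ikzf2) and 4.89 (remaining), the 10 genes summed spanned 1.56-fold over 8 rows, and the median log2 ratio of Ikzf2 over Rag1 cells for that sum, -0.32 in the main setting, was -0.36. As the mean of CPM per cell they were 3.08 and 1.57, then 2.04 (Cd79a), 2.35 (Rag1), 3.52 (Ikzf2) and 4.94 (remaining), 1.66-fold and -0.44. Without mitochondrial, ribosomal protein and Gm genes in the total, the summed genes spanned 1.85-fold and the log2 ratio was -0.35. Looser limits for the groups gave 1.97 in Cd79a, 2.95 in Cst3 and 3.34 in remaining cells. In cells of 3000 to 12000 UMIs, added after the data had been seen, the fold over the odd rows was 3.01, the groups gave 1.94 (Cd79a), 1.35 (Cst3), 3.96 (Ikzf2) and 6.94 (remaining), with too few Rag1 cells in row 11, 4 of the members were 2-fold apart (31.4% of all genes were), the summed genes spanned 1.44-fold and the log2 ratio was -0.28. Leaving out 1 odd row in turn put that ratio at -0.34 to -0.30. Thinned to 500 UMIs, the share of cells with a UMI was 30.5%, 36.6%, 25.0%, 50.8%, 17.2%, 16.8%, 14.1% and 23.4% in rows 11 to 18, and without thinning 67.5%, 60.8%, 69.3%, 81.4%, 60.6%, 50.6%, 48.2% and 59.3%, so row 14 was highest under each, while the order of rows 11, 12 and 13 and that of rows 15 and 18 depended on it. No paired analysis was possible because no source assigns the rows to groups or replicas. Counting precision was high for sums and low for Cd79a cells of row 17, with 58 cells, and Rag1 cells of rows 11 and 17, with 72 and 75.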
